A study of Mus musculus with 4 samples.

Results

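Vascular endothelial cells of the mouse heart were followed here as the wells of the non-cardiomyocyte (NCM) fraction that carried their transcripts. A well was taken when it held at least 10000 UMIs (unique molecular identifiers, 1 per captured RNA molecule) and 300 detected genes and met a marker rule. The rule asked that Pecam1, Cdh5, Fabp4, Kdr, Flt1, Ly6c1, Egfl7, Tie1, Cldn5, Esam, Emcn and Aqp1 together made up at least 0.7% of the UMIs outside mitochondrial and haemoglobin genes (below, other UMIs), with at least 4 of the 12 detected. It also asked that the endocardial genes Npr3, Cytl1 and Vwf summed to under 0.2% and the fibroblast genes Dcn, Col1a1 and Col3a1 to under 1%. This left 703 of the 2857 NCM wells that passed the depth minimum, and of 3990 such wells in the whole series. Of the 703 wells, 297 came from animal KO1, 155 from KO2, 73 from WT1 and 178 from WT2.

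The KO hearts came from Mst1/2-deficient C57BL/6 mice and the WT hearts from C57BL/6 mice with the wild-type genotype, 2 animals of each. The labels give no allele, no Cre driver, no age and no injury or drug, so it cannot be said in which cells the genes were deleted. The deposited per-well reports name the animal and the fraction of every well, and each chip held 1 genotype and 1 fraction, so within the NCM fraction genotype and chip cannot be told apart. Cells had been parted by low-speed centrifugation, and polyadenylated RNA was sequenced.

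The inner wall of heart capillaries is a single layer of endothelial cells that passes oxygen and fatty acids to the muscle, holds leukocytes in the blood until they are called, and sets vessel tone. Caveolae, the flask-shaped pits of its membrane, are among its most visible features, and fatty acids cross it with the help of the lipase anchor Gpihbp1, the transporter Cd36 and the binding protein Fabp4. MST1 and MST2, encoded by Stk4 and Stk3, are kinases at the head of the Hippo pathway, which acts through LATS kinases to hold the coactivators YAP and TAZ out of the nucleus.

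The chosen wells differed between genotypes first of all in their mitochondrial RNA. Mitochondrial transcripts made up 62.3% of the UMIs in KO1 and 38.8% in KO2, against 8.63% in WT1 and 14.8% in WT2. Both KO animals lay above both WT animals, by 38.8 percentage points on average, and the two-sided exact permutation test over animals gave p = 0.333, the smallest value that 2 against 2 allows. Only 1 well of KO1 and 26 of KO2 held less than 30% mitochondrial UMIs, against 72 of WT1 and 158 of WT2. Haemoglobin transcripts took 4.59% of the summed UMIs in KO1 and 13.0% in KO2, against 0.0479% in WT1 and 6.35% in WT2. For these sums the genotypes overlapped (exact permutation p = 0.667). The median well held 0.437% haemoglobin in KO1 and 1.93% in KO2, against 0.0323% in WT1 and 0.100% in WT2. These medians did not overlap (exact permutation p = 0.333). In the cardiomyocyte (CM) fraction, 81 wells met the same rule, and there the mitochondrial share was 52.7% in KO1 and 29.4% in KO2, against 40.4% in WT1 and 26.8% in WT2, with the genotypes overlapping.

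**Figure D1:**
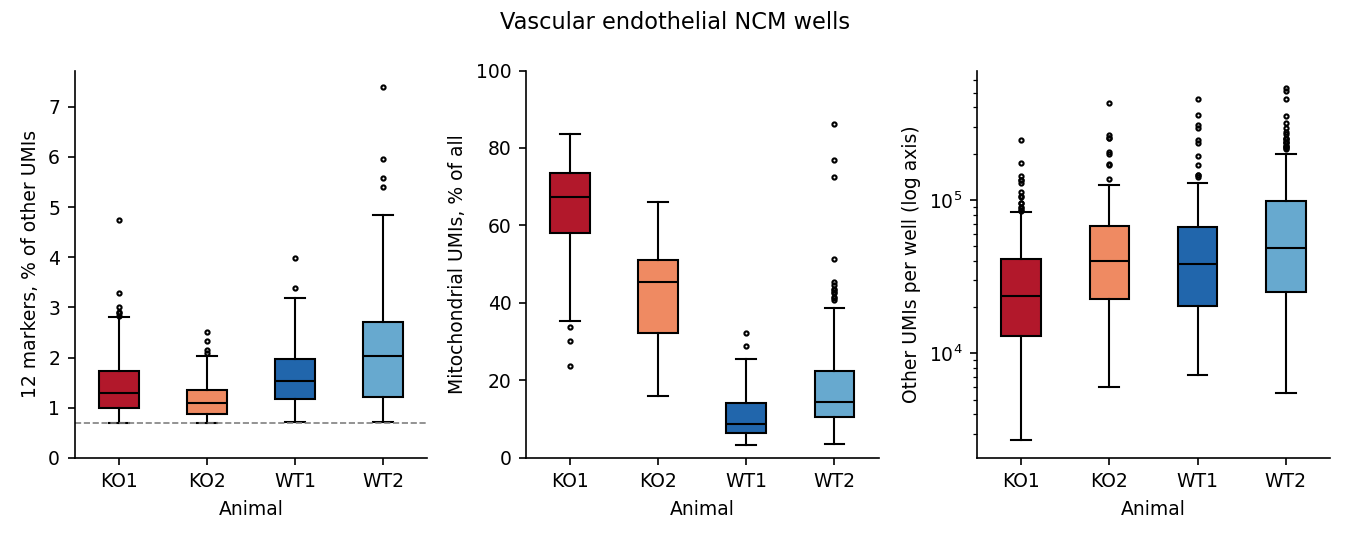
Values of single vascular endothelial NCM wells by animal, with the 12 markers as % of other UMIs (left), mitochondrial UMIs as % of all UMIs (middle) and other UMIs per well on a log axis (right). Boxes span the quartiles around the median, whiskers reach the farthest well within 1.5 box lengths, points are wells beyond them, and the dashed line is the minimum of the rule. The median mitochondrial share was 67.2% in KO1 and 45.5% in KO2, above 8.75% in WT1 and 14.4% in WT2.

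Depth was uneven. All UMIs together had a median of 83507 per well in KO1 and 90757 in KO2, against 45072 in WT1 and 61521.5 in WT2. Once mitochondrial and haemoglobin UMIs were set aside, as in the plot of single wells, the median was 23573 in KO1 and 40057 in KO2, against 38447 in WT1 and 48776.5 in WT2, so KO1 was then the lowest animal and the genotypes overlapped. The sums of these UMIs over wells that the gene tests used came to 9521263 UMIs in KO1 and 8603506 in KO2, against 5098085 in WT1 and 14760190 in WT2. A median well showed 1801 genes in KO1 and 2431 in KO2, against 2074 in WT1 and 2076.5 in WT2. Of the well barcodes, 473 occurred on both NCM chips, each at the same chip position, and 17 of these were vascular endothelial wells on both chips.

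The share of NCM wells that met the rule did not part the genotypes. It was 41.5% in KO1 (95% Clopper-Pearson interval 37.9 to 45.2%, 297 of 715 wells) and 20.7% in KO2 (17.9 to 23.8%, 155 of 747), against 10.5% in WT1 (8.36 to 13.1%, 73 of 692) and 25.3% in WT2 (22.1 to 28.7%, 178 of 703). KO2 lay below WT2, and the mean difference of 13.2 percentage points had an exact permutation p of 0.667. The intervals cover counting error only. With the marker minimum lowered to 0.35%, the shares were 56.9% in KO1 and 38.4% in KO2, against 14.6% in WT1 and 31.2% in WT2, and no longer overlapped (exact permutation p = 0.333). With the minimum raised to 1.4% they were 17.5% in KO1 and 4.15% in KO2, against 6.36% in WT1 and 17.9% in WT2, and the mean difference turned to −1.32 percentage points.

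**Figure D2:**
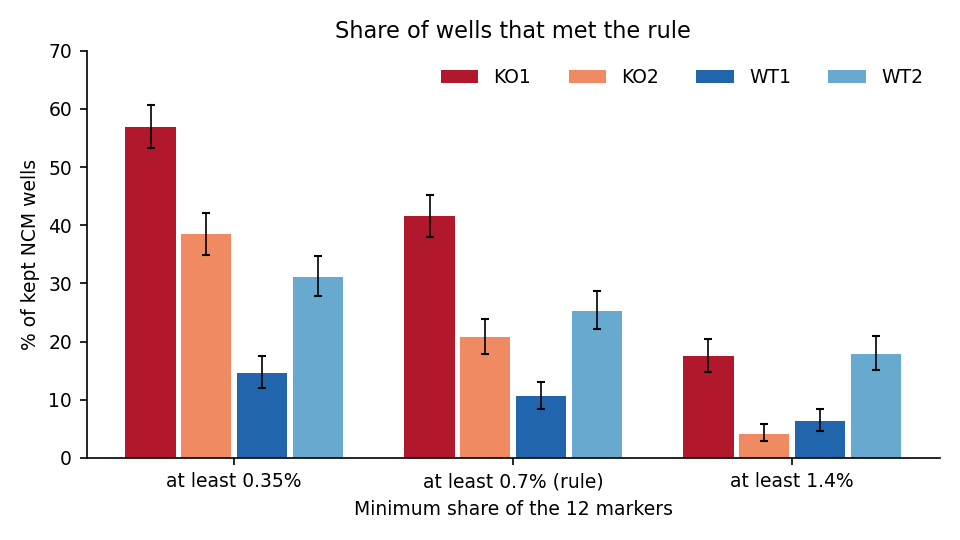
Share of kept NCM wells that met the marker rule in each animal, at 3 minimum shares of the 12 markers. Bars are % of wells, starting at 0, and error bars are 95% Clopper-Pearson intervals for counting error. The order of the animals changes with the minimum, and at the rule's 0.7% the KO bars stand at 41.5 and 20.7% and the WT bars at 10.5 and 25.3%.

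The minimum cut through more wells in KO than in WT animals. Just inside it, between 0.7 and 0.8%, lay 25 wells of KO1 and 22 of KO2, against 4 of WT1 and 11 of WT2. Just outside it, between 0.6 and 0.7%, lay 21 wells of KO1 and 30 of KO2, against 6 of WT1 and 6 of WT2. The NCM wells that failed the rule held the 12 markers at a median of 0.316% in KO1 and 0.216% in KO2, against 0.0530% in WT1 and 0.0746% in WT2. Wells with fibroblast genes, which have no endothelial program of their own, held them at 0.205% in KO1 and 0.127% in KO2, against 0.0615% in WT1 and 0.0474% in WT2. The level of these transcripts outside the chosen wells was thus higher in both KO animals than in both WT animals, and its part in the values below was not tested.

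The wells were chosen by the levels of their marker genes, so these are given as a description. The 12 together took a median of 1.28% of other UMIs in KO1 (0.703 to 4.74%) and 1.09% in KO2 (0.704 to 2.51%), against 1.53% in WT1 (0.713 to 3.98%) and 2.04% in WT2 (0.708 to 7.39%). A median well showed 8 of the 12 in each animal. Fabp4 was seen in 99.9% of the wells and Ly6c1, a surface protein of small-vessel endothelium in mice, in 96.4%. Egfl7, a secreted endothelial matrix protein, was seen in 80.1%, the VEGF receptor genes Flt1 and Kdr in 76.0 and 73.4%, and Cdh5, the cadherin of endothelial junctions, in 74.7%. Cldn5, a tight-junction gene, was seen in only 15.1%. Fabp4 alone supplied 48.8% of the UMIs of the 12 in KO1 and 46.7% in KO2, against 49.8% in WT1 and 47.2% in WT2.

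Levels below are in CPM of other UMIs, scaled with TMM factors, and the values of a gene are given for KO1 and KO2 and then for WT1 and WT2. Of the 12 rule markers, 6 stood lower in both KO animals than in both WT animals, as did 18.9% of all genes tested, and the remaining 6 overlapped. Fabp4 stood at 6072 and 5306 CPM in KO, against 9111 and 10301 CPM in WT. Ly6c1 stood at 2327 and 2948 CPM in KO, against 4493 and 6269 CPM in WT. Egfl7 stood at 500.4 and 446 CPM in KO, against 920.1 and 1229 CPM in WT. Esam, Cdh5 and Emcn made up the rest of those 6, while Pecam1, Kdr, Flt1, Tie1, Cldn5 and Aqp1 overlapped. Without TMM factors Cdh5 and Emcn overlapped too. Cdh5 then stood at 571 and 482 CPM in KO, against 617 and 517 CPM in WT. Emcn then stood at 337 and 304 CPM in KO, against 541 and 328 CPM in WT.

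**Figure D3:**
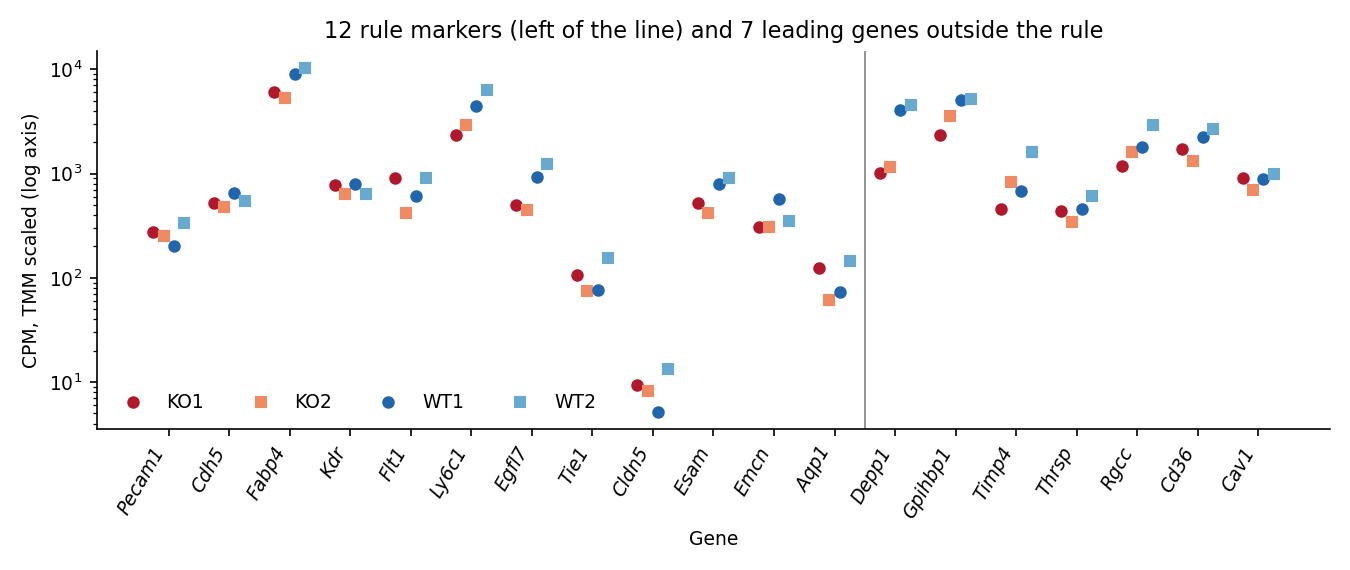
Level of the 12 rule markers (left of the grey line) and of 7 genes outside the rule (right) in the sums per animal, in CPM on a log axis. The 7 were picked from the genes that stood high over other NCM wells and are not the 7 highest. Each point is 1 animal, KO in red tones and WT in blue tones. Depp1, the first gene right of the line, stood at 1007 and 1157 CPM in KO and at 4103 and 4586 CPM in WT.

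Genes known from heart capillaries were among those that stood highest over other NCM wells. In all 4 animals, 124 genes were at least 2-fold higher in the chosen wells than in the remaining NCM wells, of which 114 were not used by the rule. Since the rule chose the wells by linked genes, this is no test. The first of these outside the rule were Depp1, a target gene of FOXO factors, Gpihbp1, Timp4, an inhibitor of matrix metalloproteinases, Thrsp, a regulator of lipid synthesis, and Rgcc, a regulator of the cell cycle. Their step over the other wells was smaller in KO, where the 114 genes had a median log2 ratio of 1.61 in KO1 and 1.61 in KO2, against 2.95 in WT1 and 2.82 in WT2. After each well was thinned to 5000 other UMIs, which left out 6 wells of KO1, Cd36 was seen in 89.0 and 92.9% of KO wells and in 89.0 and 89.9% of WT wells. In fibroblast wells, which should lack it, Cd36 was seen at that depth in 44.4 and 33.3% of KO wells and in 18.3 and 20% of WT wells.

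Markers of other vessel types were present at low levels in the same wells. Prox1, the defining transcription factor of lymphatic endothelium, was seen in 0.687 and 1.94% of thinned KO wells and in 1.37 and 1.69% of thinned WT wells. Hey1, a Notch target of arteries, was seen in 4.81 and 6.45% of KO wells and in 2.74 and 6.18% of WT wells. In fibroblast wells Prox1 was seen in 1.11 and 0% of KO wells, where 0 of 123 allows a share of up to 2.44%, and in 0.704 and 1.48% of WT wells, so the Prox1 share lay at the level of background. The lymphatic list as a whole took 0.111 and 0.0151% of other UMIs in KO, against 0.0515 and 0.0589% in WT. The venous list, which holds genes that fibroblasts also carry, took 0.145 and 0.208% in KO, against 0.199 and 0.143% in WT. Lrg1, a venous gene of this list, was seen in 10.7 and 16.1% of thinned KO wells and in 26.0 and 16.9% of thinned WT wells, and in fibroblast wells in 10 and 12.2% of KO and in 6.34 and 4.44% of WT. Vcam1, an adhesion molecule, was seen in 7.90 and 18.1% of thinned KO wells and in 8.22 and 7.30% of thinned WT wells, and in fibroblast wells in 24.4 and 25.2% of KO and in 38.7 and 29.6% of WT. The arterial list as a whole took 0.0624 and 0.0309% of other UMIs in KO, against 0.0254 and 0.0538% in WT.

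Transcripts of other heart cells were present in every animal. The 10 macrophage markers summed to 0.305 and 0.349% of other UMIs in KO, against 0.275 and 0.244% in WT. The 8 fibroblast markers outside the rule summed to 0.234 and 0.325% in KO, against 0.181 and 0.156% in WT. Both sums were higher in both KO animals than in both WT animals. The sum of the 10 cardiomyocyte markers overlapped, at 0.335 and 0.690% in KO, against 0.238 and 0.567% in WT. Of the single markers, 7 of 10 for macrophages, 4 of 8 for fibroblasts and 2 of 10 for cardiomyocytes stood above WT in both KO animals. In each list 0 stood below, against 21.2% of all genes above and 18.9% below. The cardiomyocyte gene Myh6 was seen in 48.5 and 72.9% of thinned KO wells and in 15.1 and 20.8% of thinned WT wells. Ttn, another of these markers, was seen in 63.6 and 81.3% of thinned KO wells and in 30.1 and 24.7% of thinned WT wells. Neutrophil markers were highest in WT1, at 0.0575 and 0.0424% in KO, against 0.245 and 0.0228% in WT. No marker of these lists was at 0 over the 4 animals. Adgre1, the macrophage marker F4/80, stood at 77.5 and 65.7 CPM in KO, against 13.0 and 12.7 CPM in WT, and Col1a2 at 585 and 1159 CPM in KO, against 549 and 326 CPM in WT. Lyz2, a macrophage lysozyme, overlapped, at 1086 and 1632 CPM in KO, against 1851 and 1425 CPM in WT. A well may hold RNA of more than 1 cell, so for any gene below less RNA per endothelial cell and more RNA from other cells cannot be told apart.

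Neither targeted gene passed the test between the genotypes. Stk4 stood at 40.8 and 13.8 CPM in KO, against 28.1 and 26.0 CPM in WT, a log2 difference of 0.02 (SE 0.856, edgeR adjusted p = 0.998). Stk3 stood at 17.4 and 38.7 CPM in KO, against 20.9 and 53.1 CPM in WT, a log2 difference of −0.40 (SE 0.828, edgeR adjusted p = 0.932). The genotypes overlapped for both genes, and their UMIs lay in 17.6% and 12.8% of the wells. UMIs outside a deleted stretch would still be counted, and the sources used here do not say which exons were removed, so these values do not check the genotype labels.

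Across all genes, edgeR's quasi-likelihood test over the 4 animals called 0 of 12777 genes (0.0%) at a Benjamini-Hochberg adjusted p under 0.05. At an unadjusted p under 0.05 it found 1104 genes (8.64%), 616 higher (4.82%) and 488 lower (3.82%) in KO. DESeq2, the other tool, called 219 genes (1.71%), 126 higher (0.986%) and 93 lower (0.728%). Unless another test or a left-out animal is named, the edgeR adjusted p-values of single genes below come from this one test, in which none passed. Both KO animals stood above both WT animals for 21.2% of all genes and below them for 18.9%, and the median log2 difference of all genes was −0.02. The count of a gene list is read against these 2 shares.

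Capillary genes leaned towards lower values in KO, although none passed the test. Of 10 capillary genes, 6 stood below WT in both KO animals and 0 above, with a median log2 difference of −0.78, which was −0.46 without WT2. Gpihbp1, which carries lipoprotein lipase to the capillary lumen, stood at 2325 and 3537 CPM in KO, against 5086 and 5217 CPM in WT (log2 −0.81, SE 0.260, edgeR adjusted p = 0.542). Cd36 stood at 1730 and 1329 CPM in KO, against 2247 and 2692 CPM in WT. Rgcc stood at 1179 and 1626 CPM in KO, against 1794 and 2890 CPM in WT, and Car4, a carbonic anhydrase on the luminal surface, at 104 and 105 CPM in KO, against 168 and 245 CPM in WT. For each of these 4 genes both KO animals lay below both WT animals. Kcna5, a potassium channel, overlapped, at 64.4 and 308 CPM in KO, against 11.8 and 74.4 CPM in WT.

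The clearest value of a single gene was that of Depp1 (chr6:116650609-116652794, mm10). It stood at 1007 and 1157 CPM in KO, against 4103 and 4586 CPM in WT. The gap between the genotypes was wider than the gap within either, at a log2 difference of −2.01 (SE 0.237), with an edgeR adjusted p of 0.451 and a DESeq2 adjusted p of 0.00023. With 1 KO animal left out, which leaves the other assumed to vary like the WT animals, the edgeR adjusted p was 0.00237 without KO1 and 0.00018 without KO2, while it was 0.378 without WT1 and 0.183 without WT2. Wells were then parted at each animal's median mitochondrial share, a split chosen after the values had been seen. Among the lower-share wells Depp1 stood at 1169 and 1066 CPM in KO, against 4371 and 4784 CPM in WT, and among the higher-share wells at 980.5 and 1328 CPM in KO, against 2764 and 3315 CPM in WT. The genotypes stayed apart in each set, although the lower-share wells of KO still held more mitochondrial RNA, with medians of 57.8 and 32.1% in KO, than the higher-share wells of WT, with medians of 14.1 and 22.5% in WT.

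Caveolar genes leaned the same way. Of 10 caveolae genes, 5 stood below WT in both KO animals and 0 above, with a median log2 difference of −0.76. That median was −0.42 without KO1, −0.49 without WT2, −0.42 and −0.40 at marker minimums of 1.4 and 0.35%, and −0.46 in thinned wells. Cavin3, an adaptor of the caveolar coat, stood at 263 and 302 CPM in KO, against 915 and 644 CPM in WT (log2 −1.46, SE 0.320, edgeR adjusted p = 0.542, DESeq2 adjusted p = 0.0434). Cavin2, a membrane-shaping coat protein, stood at 661 and 469 CPM in KO, against 1199 and 1465 CPM in WT (log2 −1.24, SE 0.299). Ehd2, an ATPase at the caveolar neck, had a log2 difference of −1.07 and Cav2, a caveolin, one of −0.94. Cav1, the main structural caveolin, overlapped, at 909 and 692 CPM in KO, against 891 and 993 CPM in WT (log2 −0.23, SE 0.281). Among the wells of higher mitochondrial share the Cavin3 gap was smaller, at 243 and 232 CPM in KO, against 301 and 320.4 CPM in WT, while among the lower-share wells it was 311 and 339 CPM in KO, against 1107 and 739 CPM in WT.

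Promoters of 2 caveolar genes from this list and of the rule marker Egfl7 are printed as a description of their sequence. Egfl7 helped to choose the wells, so its lower level in KO is not read as a change shared with the caveolar genes. They are RefSeq windows of 300 bases, from 250 before to 50 after the start, on GRCm38.p6, 5′ to 3′ on the plus strand. Capitals mark CNGGAAG on either strand, a spelling of the core that ETS factors such as Erg can bind.
Cav2 chr6:17280935-17281234: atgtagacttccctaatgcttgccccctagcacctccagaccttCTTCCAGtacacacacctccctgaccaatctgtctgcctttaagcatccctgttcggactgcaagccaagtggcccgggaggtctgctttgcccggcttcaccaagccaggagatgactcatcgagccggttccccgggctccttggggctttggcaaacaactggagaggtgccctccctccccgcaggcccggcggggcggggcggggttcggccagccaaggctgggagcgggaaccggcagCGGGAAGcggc
Cavin2 chr1:51288876-51289175: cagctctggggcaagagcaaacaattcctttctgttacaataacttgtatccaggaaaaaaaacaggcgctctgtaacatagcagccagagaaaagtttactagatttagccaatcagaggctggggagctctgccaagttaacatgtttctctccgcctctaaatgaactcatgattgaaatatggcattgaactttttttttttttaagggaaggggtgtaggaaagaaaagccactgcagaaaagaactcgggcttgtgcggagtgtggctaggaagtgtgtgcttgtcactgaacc
Egfl7 chr2:26580833-26581132: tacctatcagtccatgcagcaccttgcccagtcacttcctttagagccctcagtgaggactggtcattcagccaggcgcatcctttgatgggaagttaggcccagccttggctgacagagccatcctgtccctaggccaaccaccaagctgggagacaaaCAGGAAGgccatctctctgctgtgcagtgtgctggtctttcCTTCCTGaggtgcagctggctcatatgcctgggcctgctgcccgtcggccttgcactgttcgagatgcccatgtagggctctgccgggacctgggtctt
The printed Cav2 window held 2 matches, the printed Egfl7 window 2 and the Cavin2 window 0. Egfl7 has 2 other windows in the table, with 2 and 0 matches. A match was held by 31.9% of the 32851 promoter windows searched. Windows were found for 9 of the 10 caveolae genes, not for Cavin3, and for 8 of the 12 rule markers. These caveolae genes had 13 windows, of which 3 held a match, and these rule markers had 11 windows, of which 5 did. By gene, 3 of the 9 caveolae genes and 4 of the 8 rule markers held a match in any window. A match is a description of letters, not of a bound site.

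The lists of capillary lipid uptake and of Ly6 genes were mixed. The lipid list shares Gpihbp1, Cd36, Meox2 and Tcf15 with the capillary list, and Cav1 with the caveolae list. Gpihbp1, Cd36 and Meox2, counted above as capillary genes below WT, are counted again here. Of 14 genes of capillary lipid uptake, 4 stood below WT in both KO animals and 2 above, near the shares over all genes. The median log2 difference of −0.59 was −0.25 without KO2, −0.36 without WT2 and −0.21 in thinned wells. Fabp5, a fatty acid binding protein, stood at 363 and 296 CPM in KO, against 639 and 554 CPM in WT (log2 −0.86, SE 0.305). Angptl4, an inhibitor of lipoprotein lipase, stood at 51.6 and 111 CPM in KO, against 29.7 and 50.7 CPM in WT (log2 1.01, SE 0.632). Meox2, a homeobox factor that drives fatty acid transport genes in heart endothelium of mice, stood at 34.5 and 25.1 CPM in KO, against 52.7 and 106 CPM in WT. Of 5 Ly6 genes tested, 3 stood below WT in both KO animals and 1 above, and 1 of those below is the rule marker Ly6c1. The gene above was Ly6d, at 4.19 and 22.3 CPM in KO, against 0.207 and 0.216 CPM in WT, which was seen in 1.28% of the wells and called by DESeq2. Ly6a, the stem cell antigen Sca-1, stood at 2037 and 2634 CPM in KO, against 4482 and 4495 CPM in WT (log2 −0.94, SE 0.234), and Ly6e at 1273 and 1486 CPM in KO, against 2166.3 and 3146 CPM in WT. The Ly6 genes have near-identical copies among which reads may have been split, so these values are uncertain.

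Endothelial identity genes outside the rule lay more often below WT than above, although none passed the test. Of 16 such genes, 8 stood below WT in both KO animals and 2 above, against 18.9 and 21.2% of all genes. The median log2 of the 16 genes was −0.34, but −0.72 without KO1 and −0.12 without KO2. Icam2 (chr11:106377656-106388075, mm10), an adhesion molecule of resting endothelium, stood at 295 and 226 CPM in KO, against 1224 and 664 CPM in WT (log2 −1.86, SE 0.379, edgeR adjusted p = 0.542, DESeq2 adjusted p = 0.0107). Ecscr, an endothelial surface protein, stood at 432 and 330.4 CPM in KO, against 759 and 801 CPM in WT. Erg, the ETS factor that maintains endothelial identity, stood the other way, at 189 and 157 CPM in KO, against 62.6 and 88.1 CPM in WT (log2 1.20, SE 0.433). Of 19 endothelial transcription factors, 5 stood above WT in both KO animals and 4 below (median log2 0.05), with Ets1 at 132 and 59.2 CPM in KO, against 220.4 and 164 CPM in WT.

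**Figure D4:**
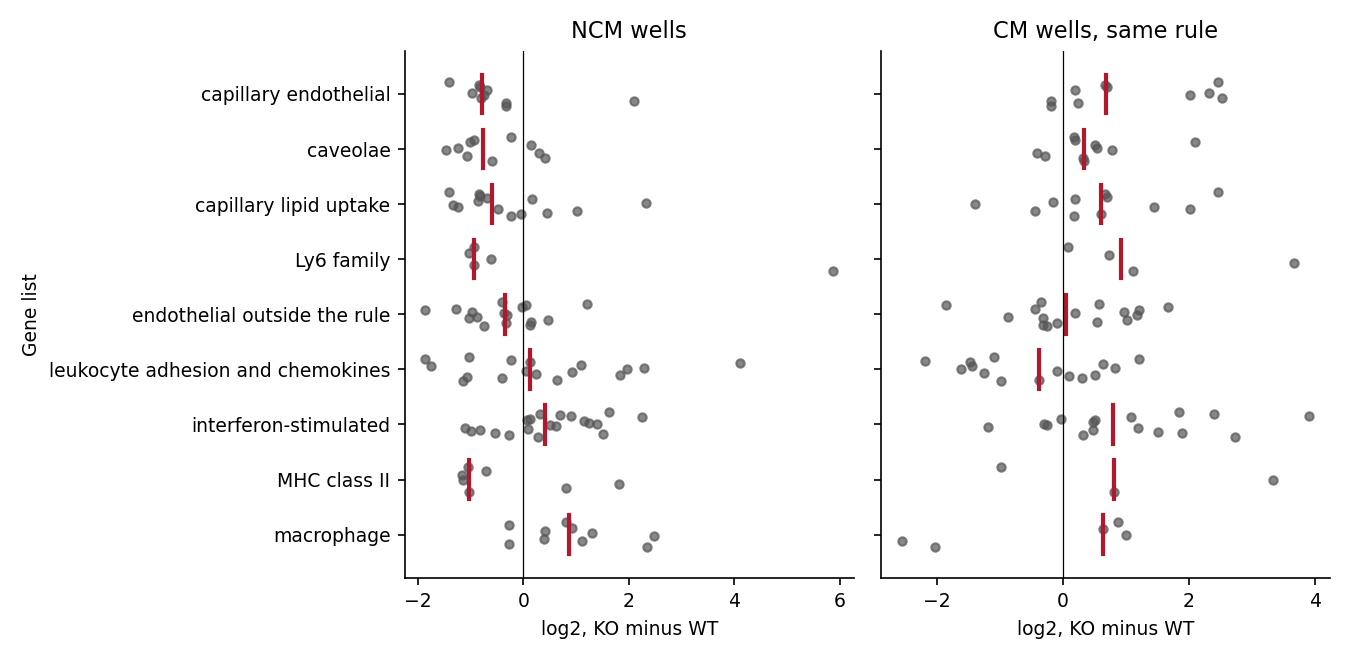
Difference between genotypes for the genes of 9 lists in vascular endothelial wells of the NCM fraction (left) and in CM wells that met the same rule (right). Each point is 1 tested gene, on a log2 axis of KO minus WT, and red bars are list medians. The capillary median stood at −0.78 in NCM wells and at 0.69 in CM wells. In CM wells the summed share of the capillary genes in KO2 lay between those of WT1 and WT2. The Ly6 list includes the rule marker Ly6c1, and its point farthest right in NCM wells rests on few UMIs in WT.

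Chemokines that draw monocytes stood higher in KO. Ccl2 and Ccl7, ligands of the monocyte receptor CCR2, lie next to each other (chr11:82035571-82037453 and chr11:82045712-82047525, mm10). Ccl2 stood at 928 and 2342 CPM in KO, against 372 and 302 CPM in WT (log2 2.28, SE 0.447, edgeR adjusted p = 0.542, DESeq2 adjusted p = 0.00258). Ccl7 stood at 756 and 2167 CPM in KO, against 363 and 387 CPM in WT (log2 1.96, SE 0.474, DESeq2 adjusted p = 0.0196). KO2 was the highest animal for both genes, and KO1 also lay above both WT animals. Without KO2 the log2 difference was 1.45 for Ccl2 and 1.00 for Ccl7, and without KO1 it was 2.78 for Ccl2 and 2.52 for Ccl7, with edgeR adjusted p of 0.000809 and 0.00194 (KO2 alone assumed to vary like the WT animals). Without the 138 wells whose macrophage markers reached 0.5% of other UMIs, the log2 difference was 1.74 for Ccl2 and 1.60 for Ccl7. It was 1.15 for Ccl2 and 1.1 for Ccl7 at a marker minimum of 1.4%, 1.09 for Ccl2 and 1.06 for Ccl7 at 0.35%, and 1.37 for Ccl2 and 1.35 for Ccl7 in thinned wells. Cxcl10, an interferon-induced ligand of T cells, stood at 41.6 and 46.5 CPM in KO, against 9.50 and 15.1 CPM in WT. Of 17 genes of leukocyte adhesion and chemokines, 6 stood above WT in both KO animals and 5 below (median log2 0.12), so the list as a whole did not lean one way. Icam2, counted above among the endothelial identity genes, is counted again here among those below.

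Interferon and antigen presentation genes split. Of 20 interferon-stimulated genes, 7 stood above WT in both KO animals and 3 below (median log2 0.42, but −0.00015 without WT1, 0.24 without KO2 and 1.13 without WT2). Ifit1, which binds foreign RNA, stood at 60.1 and 125 CPM in KO, against 25.2 and 34.7 CPM in WT, and Rsad2, the antiviral enzyme viperin, at 253 and 218 CPM in KO, against 160 and 38.6 CPM in WT. Of 7 MHC class II genes, 4 stood below WT in both KO animals and 1 above (median log2 −1.02, but −0.55 without WT1). H2-Aa, a class II chain, stood at 414 and 269 CPM in KO, against 922 and 490 CPM in WT (log2 −1.05, SE 0.401). Cd74, the class II invariant chain, stood at 54.8 and 49.3 CPM in KO, against 131 and 101 CPM in WT. In macrophage wells of the same chips the log2 difference of H2-Aa was −2.70, and macrophages carry these genes too. Of 13 MHC class I genes, 3 stood above and 4 below (median log2 −0.17). Of 12 genes of NF-kB feedback, 5 stood above and 1 below, with Ier3 at 229 and 292 CPM in KO, against 111 and 187 CPM in WT.

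Genes of the wider Hippo pathway did not pass the test either. Their list of 15 genes holds Stk4 and Stk3 themselves and the upstream gene Nf2. It also holds the LATS and MOB1 genes, Sav1, and the YAP, TAZ, TEAD and Vgll4 genes. Of the 14 genes of this list that were tested, 5 stood above WT in both KO animals and 2 below. Their median log2 was 0.60, but 0.032 without KO1, 1.11 without KO2 and 1.05 without WT2. Lats2, the kinase that MST1 and MST2 activate and itself a target of YAP, stood at 84.5 and 90.2 CPM in KO, against 34.9 and 28.3 CPM in WT (log2 1.47, SE 0.549, edgeR adjusted p = 0.565). Vgll4, which competes with YAP for TEAD factors, stood at 6.09 and 26.4 CPM in KO, against 91.5 and 126 CPM in WT (log2 −2.75, SE 0.788, DESeq2 adjusted p = 0.0187). Tead1 stood at 40.2 and 31.3 CPM in KO, against 5.58 and 16.8 CPM in WT. For these 3 genes the genotypes did not overlap. Of 15 YAP and TAZ targets, 4 stood above and 1 below (median log2 0.35, but −0.029 without KO1 and 0.59 without WT1), with Ccn2 at 105 and 152 CPM in KO, against 65.5 and 83.9 CPM in WT, and Axl at 95.01 and 110.4 CPM in KO, against 67.9 and 51.6 CPM in WT.

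Vessel growth and tone genes lay in both directions. Of 19 genes of VEGF, angiopoietin and Notch signalling, 5 stood above WT in both KO animals and 4 below (median log2 0.16). Hey1 stood at 72.0 and 35.8 CPM in KO, against 7.02 and 17.8 CPM in WT. Its UMIs lay in 9.76 and 9.03% of KO wells and in 8.22 and 13.5% of WT wells, and these shares overlapped. Vegfc, the growth factor of lymphatic vessels, stood at 26.6 and 11.7 CPM in KO, against 99.1 and 38.3 CPM in WT. Angpt2, which destabilises vessels, stood at 28.4 and 1.28 CPM in KO, against 79.3 and 63.3 CPM in WT. Of 14 genes of nitric oxide, tone and clotting, 5 stood above and 3 below, with Nos3, the endothelial nitric oxide synthase, at 18.8 and 8.37 CPM in KO, against 42.8 and 23.1 CPM in WT. Of 16 genes of TGF-beta and BMP signalling, 3 stood above and 3 below, near the shares over all genes. Their median log2 of −0.59 was −0.13 without KO2, −0.16 without WT1 and −0.098 without WT2. Id3, a target of BMP signals, stood at 582 and 745 CPM in KO, against 1287 and 1355 CPM in WT (log2 −0.99, SE 0.273). Among the 14 leukotriene and prostanoid genes tested, 5 stood above and 1 below (median log2 0.13). Alox5ap, which hands arachidonic acid to 5-lipoxygenase, stood at 197 and 272 CPM in KO, against 120.0 and 103 CPM in WT, and Lta4h, which makes leukotriene B4, at 45.4 and 49.8 CPM in KO, against 166 and 63.9 CPM in WT.

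Nuclear genes of the respiratory chain did not share the direction of the mitochondrial transcripts. Of 16 nuclear genes of the respiratory chain, 7 stood below WT in both KO animals and 0 above. Their median log2 of −0.42 was −0.16 without KO1, −0.67 without KO2, −0.16 without WT2 and −0.12 at a marker minimum of 1.4%. Among them was Sdhb, a subunit of complex II, at 232 and 371 CPM in KO, against 478 and 579.8 CPM in WT. Of 14 glycolysis genes, 5 stood above and 2 below (median log2 0.09), with Pkm, pyruvate kinase, at 412 and 493 CPM in KO, against 261 and 229 CPM in WT. Of 15 antioxidant genes, 6 stood above and 3 below (median log2 0.49, but 0.13 without KO2 and 0.27 without WT1), with Txn1, a thioredoxin, at 856 and 1690 CPM in KO, against 594 and 731 CPM in WT. Of 15 immediate early genes, which dissociation can induce, 4 stood above and 3 below (median log2 0.23), and of 12 heat shock genes 2 above and 3 below (median log2 0.02).

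The ranking by size gave genes of many functions, each seen in few wells. The 12 genes that stood highest in KO, among those with an unadjusted p under 0.05, lay between a log2 difference of 2.72 for Rere and 4.52 for Lpxn, a focal adhesion adaptor. Lpxn stood at 53.0 and 24.99 CPM in KO, against 1.65 and 1.73 CPM in WT, and was seen in 12.4% of the wells. Slc25a37, the mitochondrial iron importer of red cell precursors, stood at 84.3 and 322 CPM in KO, against 3.30 and 23.5 CPM in WT. KO2 held the highest haemoglobin share and was highest here. WT2 lay below KO1, although haemoglobin took 6.35% of the summed UMIs in WT2 and 4.59% in KO1. In the median well haemoglobin took 0.100% in WT2 and 0.437% in KO1. The part of red cell RNA in this gene was not tested. Xirp2, an actin-binding protein of striated muscle, stood at 101 and 70.6 CPM in KO, against 8.67 and 10.2 CPM in WT. Terf2ip, Cd24a, Angptl2, Plbd2, Gpr153, Mrc2, Jdp2 and Ibtk completed the 12. At the other end stood ENSMUSG00000095406, which the reference tables do not name, at 1.52 and 0.697 CPM in KO, against 38.2 and 74.1 CPM in WT (log2 −5.64, SE 1.02). Its log2 difference was −5.33 in fibroblast wells, −5.74 in macrophage wells and −6.66 in CM wells. Surf1, an assembly factor of complex IV, stood at 20.3 and 29.8 CPM in KO, against 189 and 104 CPM in WT, and Meaf6, Kmt2b, Mcoln1, Psmd5, R3hcc1l, Hspb6, Thap3, Xpr1, Slc35b2 and Mfap3 completed this group.

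Whether the differences were particular to endothelial wells was tested against other cells of the same animals. The interaction of genotype and cell class, fitted with edgeR and the animal as block, called 0 of 14572 genes (0.0%) against 492 fibroblast wells and 0 of 13903 genes (0.0%) against 416 macrophage wells. At an unadjusted p under 0.05 the counts were 761 (5.22%) and 744 (5.35%). Gpihbp1 differed by −1.94 from its log2 difference in fibroblast wells (SE 0.260, edgeR adjusted p = 0.133), where it was 1.1, and Cd36 by −2.12 (SE 0.282, edgeR adjusted p = 0.133), where it was 1.43. Depp1 differed by −2.55 (SE 0.362, edgeR adjusted p = 0.168). The median of these differences over all genes was 0.13. Gpihbp1 and Cd36 thus stood lower in the endothelial wells and higher in the fibroblast wells of KO animals, and none of these differences passed the test.

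The CM fraction held the same animals on other chips, and the 81 wells there that met the rule (39 of KO1, 12 of KO2, 20 of WT1 and 10 of WT2) were tested in the same way. These CM wells held far more cardiomyocyte RNA, with the 10 markers at 3.15 and 5.06% of other UMIs in KO, against 3.20 and 5.18% in WT, and its part in the differences between fractions was not tested. edgeR called 0 of 7568 genes (0.0%) between the genotypes in them, with 468 (6.18%) at an unadjusted p under 0.05. Both KO animals stood above both WT animals for 18.4% of those genes and below them for 18.7%. The capillary genes, 10 of 10 tested, had a median log2 difference of 0.69 there, with 4 above in both KO animals and 0 below, and the caveolae genes one of 0.33. Summed, the capillary genes took 0.776 and 0.316% of other UMIs in KO there, against 0.288 and 0.330% in WT. For this sum KO2 lay between the WT animals, and only KO1 stood above them. The medians of these 2 lists had opposite signs in the 2 fractions, and lists were not tested between them.

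The test of the difference between the fractions, chosen after the data had been seen, called 6 of 12212 genes (0.0491%), 3 higher (0.0246%) and 3 lower (0.0246%) in NCM wells than in CM wells, with 681 (5.58%) at an unadjusted p under 0.05 and a median of 0.21 over all genes. Depp1 stood at 1185 and 928 CPM in KO and at 512 and 739 CPM in WT in the CM wells, so its log2 difference there was 0.76, and the difference between fractions was −2.79 (SE 0.390, edgeR adjusted p = 0.0017). Icam2 had a CM log2 difference of 1.21 and a difference between fractions of −3.08 (SE 0.559, edgeR adjusted p = 0.0277). Crip2, a LIM protein of vessel walls, stood at 1436 and 1704 CPM in KO and at 2696 and 3159 CPM in WT in NCM wells, and at 3509 and 4110 CPM in KO and 1764 and 2265 CPM in WT in CM wells (difference −1.85, SE 0.334, edgeR adjusted p = 0.0277). Without WT1 the edgeR adjusted p was 0.0842 for Icam2 and 0.0546 for Crip2. For these 3 genes both KO animals lay below both WT animals in the NCM fraction and above them in the CM fraction.

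The other 3 genes had the opposite sign. Wfdc17, a secreted inhibitor made by macrophages, stood at 929 and 1759 CPM in KO and at 754 and 488 CPM in WT in NCM wells, and at 330.0 and 107 CPM in KO and 1630 and 849 CPM in WT in CM wells (difference 3.69, SE 0.615, edgeR adjusted p = 0.0169). Ttn, the titin of muscle, stood at 354 and 670 CPM in KO and at 119 and 104 CPM in WT in NCM wells, where it is not an endothelial gene, and overlapped in CM wells (difference 2.42, SE 0.431, edgeR adjusted p = 0.0277, and 0.227 without WT2). Gm13341, a pseudogene model on chr2, stood at 16869 and 7580 CPM in KO and at 722 and 1629 CPM in WT in NCM wells, in the same order of animals as the mitochondrial share, and the part of mitochondrial RNA in it was not tested (difference 2.99, SE 0.388, edgeR adjusted p = 0.001). In fibroblast and macrophage wells of the NCM fraction its log2 differences were 3.08 and 3.18.

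**Figure D5:**
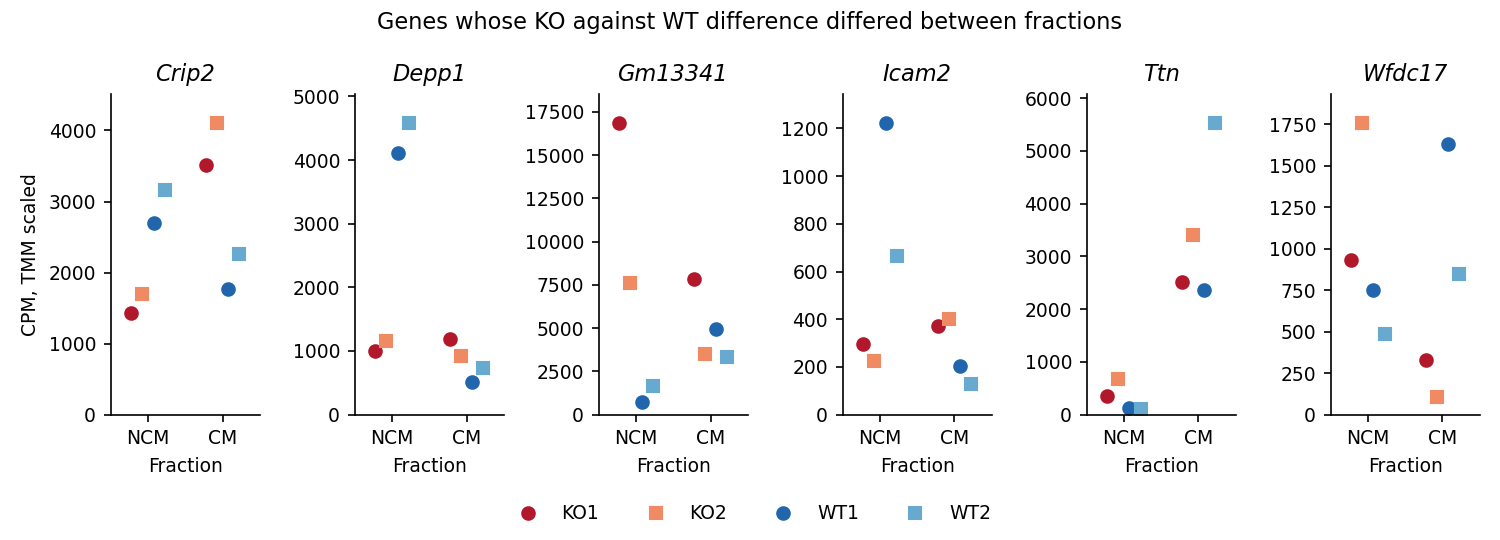
Levels of the 6 genes whose difference between genotypes differed between fractions, in vascular endothelial wells of the NCM fraction and in CM wells that met the same rule. Each point is the sum over the wells of 1 animal in CPM, on linear axes from 0 that differ between panels. In NCM wells Depp1 stood at 1007 and 1157 CPM in KO and at 4103 and 4586 CPM in WT, and in CM wells at 1185 and 928 CPM in KO and at 512 and 739 CPM in WT.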

How the data were processed

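The deposited values are counts of UMIs per gene and well on 4 chips. The submitters' processing notes name the mm10 build, the aligner STAR 2.5.2b, Subread 1.4.6-p1 and its counter featureCounts. How UMIs were collapsed, which gene annotation served and whether strand was used is not given in the sources used here. For 4315 of 4315 wells the summed counts matched the gene and UMI pairs listed in the authors' per-well report, which also names each well's animal and fraction. Of 29245 gene columns 28604 matched a symbol. The 70 columns of spike-ins and a reporter held 4.98e-05% of UMIs and were left out, and 0 columns of per-sample values were without a sample.

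Wells were chosen by the rule given above. Fibroblast wells held at least 1% Dcn, Col1a1 and Col3a1, macrophage wells at least 1% macrophage markers, and neither met the endothelial minimum. Counts were summed per animal, without mitochondrial (mt-) and haemoglobin (Hba-, Hbb-) genes, and KO was compared with WT by edgeR 4.0.16 in R 4.3.3 (TMM factors, filterByExpr, Benjamini-Hochberg adjustment at 0.05). The animal is the replicate. DESeq2 1.42.0 was the other tool. Doublets were called with Scrublet (scanpy 1.11.5), which marked 5 of the chosen wells, and stayed in except in an alternative. Sums per animal, means of shares and exact permutation tests used Python 3.11.15, scipy 1.17.1 and pandas 2.3.3, and figures matplotlib 3.10.9. The scripts were tested on simulated data.

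The members, marker sets, gene lists and most tests were chosen with earlier results of these data known. The genes named are the rule markers, Stk4 and Stk3, the 12 largest differences in each direction among genes of at least 20 CPM seen in at least 10% of wells, with an unadjusted p under 0.05 and genotypes that did not overlap, and up to 4 genes per list. Chosen after values were seen were Cav1, Depp1, Gpihbp1, Timp4, Thrsp, Rgcc and Cd36 (high over other wells), the 6 genes that differ between fractions, the markers of other cells, the test between fractions, the split by mitochondrial share and the limit of 0.5% macrophage markers. Intervals and limits cover counting error only.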

Additional observations from a re-analysis of the deposited data

Results flagged for a closer look

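Each of 6 genes differed between the NCM and CM fractions in its KO against WT log2 difference, by the edgeR interaction test with the animal as block at a Benjamini-Hochberg adjusted p under 0.05. The NCM value minus the CM value was −2.79 for Depp1, −3.08 for Icam2 and −1.85 for Crip2. It was 3.69 for Wfdc17, 2.42 for Ttn and 2.99 for Gm13341. Depp1, Icam2 and Crip2 stood lower in both KO animals in the NCM fraction and higher in both in the CM fraction, and Wfdc17 did the reverse. The macrophage marker sum was higher in both KO animals in the NCM wells, where mitochondrial UMIs reached 62.3 and 38.8% in KO, against 8.63 and 14.8% in WT, and the part of either in these values was not tested. The call was lost without TMM for Icam2 (adjusted p 0.0874) and Crip2 (0.107), without WT1 for Icam2 (0.0842) and Crip2 (0.0546), and without WT2 for Ttn (0.227). The CM wells held cardiomyocyte markers at 3.15 and 5.06% of other UMIs in KO, against 3.20 and 5.18% in WT, and the NCM wells at 0.335 and 0.690% in KO, against 0.238 and 0.567% in WT. Each fraction and genotype has its own chip, so the fraction effect and the chip cannot be told apart.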

How the results depend on the processing

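No paired analysis was possible because the animal numbers do not pair KO with WT animals and the replicate numbers only name chips. The planned restriction to wells under 30% mitochondrial UMIs gave no value, since KO1 kept 1 well against a minimum of 10. The count of 0 genes by edgeR became 219 with DESeq2 and 103 with no filter on low counts. It became 3 at a marker share of at least 1.4% and 4 with each well thinned to 5000 UMIs. It stayed 0 with library totals and no TMM, with doublets left out, with mitochondrial and haemoglobin genes kept, at a marker share of 0.35%, and in wells under 0.5% macrophage markers. Leaving out each animal gave 0 to 12 genes, with 12 without KO1, 5 without KO2 and 3 without WT2. The interaction with fibroblast wells ranged from 0 to 5 genes, the one with macrophage wells from 0 to 43 (43 without WT1, 29 without WT2, 8 without KO2), and the one between fractions from 25 to 34, against 6 with all animals. Without WT1 the adjusted p between fractions was 0.0842 for Icam2 and 0.0546 for Crip2, and without WT2 it was 0.227 for Ttn. Without TMM it was 0.0874 for Icam2 and 0.107 for Crip2. Leaving out an animal moved the difference in the share of wells over 2.82 to 23.6 percentage points, in the mitochondrial share over 27.0 to 50.6 and in the haemoglobin share over 1.39 to 9.82, and the minimum of 1.4% turned the share of wells to −1.32. Besides the list medians given above with an animal left out, those near 0 ranged over −0.033 to 0.38 for VEGF and Notch signalling, −0.65 to 0.50 for endothelial transcription factors, −0.019 to 0.34 for leukocyte adhesion, −0.12 to −0.050 for MHC class I, −0.063 to 1.04 for leukotriene genes, 0.019 to 0.43 for glycolysis, −0.19 to 0.50 for immediate early and −0.40 to 0.43 for heat shock genes.

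With no TMM the median of all genes was 0.13 in place of −0.02. Of 99 tested genes followed, 4 changed sign under an alternative other than the CM fraction. Stk4 was −0.010 with DESeq2, −0.051 at 1.4%, −0.77 with thinned wells and −0.98 to 0.59 without an animal. Stk3 was 1.03 at 1.4%, 0.030 with thinned wells and −1.10 to 0.42 without an animal. Axl was −0.60 at 1.4% and Ifit1 −0.039 at 0.35%. Of 85 with a CM value, 41 had the opposite sign there. These genes were not a random set, no share over all genes was set beside this count, and no cause was tested. Some of the CM values below were smaller than their SE, as for Stk4 (SE 2.14), Cat (SE 1.54) and Cav1 (SE 0.504). Below 0 in CM wells were Stk4 −0.10, Terf2ip −0.11, Jdp2 −1.34, Ibtk −0.77, Tead1 −1.06, Hspg2 −0.086, Ccl7 −1.62, Ier3 −0.63, Cat −0.0056, Txn1 −0.25, Alox5ap −2.27, Mcm5 −1.26, Kcna5 −0.19, Ttn −0.42 and Wfdc17 −2.50. Above 0 there were Psmd5 1.55, Surf1 0.88, Hspb6 0.93, Mfap3 1.52, Meox2 2.46, F11r 1.54, Cavin3 0.78, Cavin2 0.54, Cav2 0.19, Icam2 1.21, H2-D1 0.78, Ly6e 1.11, Ly6a 0.087, Sdhb 0.60, Uqcrc1 0.86, Id3 1.15, Car4 2.32, Lrg1 0.59, Depp1 0.76, Gpihbp1 0.71, Timp4 2.52, Thrsp 1.38, Rgcc 2.02, Cd36 0.19, Cav1 0.17 and Crip2 0.92. In the CM wells R3hcc1l had 0 UMIs in both WT animals and no value is given.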
